A study of Mus musculus with 2 samples.

Results

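The genes described here are Trp53, which encodes the mouse tumour suppressor p53, and 9 of its best known targets: Cdkn1a, Mdm2, Ccng1, Bax, Bbc3, Sesn1, Phlda3, Trp53inp1 and Zmat3. They were chosen by gene symbol, through the Ensembl identifiers of GENCODE M21, from the 55421 genes listed in both count tables. All 10 were found, and all 10 had a mean of at least 50 counts over both libraries, the level that 12064 genes reached. RNA of mouse liver was sequenced in 1 library from Rcrin conditional knockout mice and 1 library from WT mice, which carry floxed Rcrin alleles, and both carry a time label of 8 weeks. The number of mice behind a library, the driver of the deletion, the cells it reaches and the sex of the mice are not given in the sources used here. Rcrin mRNA was not analysed here.

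p53 is a transcription factor that is made and destroyed continuously in healthy cells, mainly through the ubiquitin ligase Mdm2. When DNA damage or other stress blocks that destruction, p53 accumulates and switches on genes that stop the cell cycle, trigger apoptosis, aid repair or feed back on p53 itself. Most of this control acts on the p53 protein, so the level of Trp53 mRNA is not a measure of p53 activity. In liver the target Cdkn1a, which encodes the cell cycle inhibitor p21, also responds to signals other than p53, among them those of feeding and of the clock.

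The knockout library held 63587567 counts and the WT library 65121596. With 1 library per genotype there is no estimate of the spread between mice, so no test was made, no p-value is given and each difference is one between these libraries. Every log2 ratio is knockout over WT after scaling for library size, and its interval is an exact conditional (Clopper-Pearson) 95% interval that covers counting error only. All 10 hepatocyte markers examined had counts in both libraries, with a summed level of 137934 CPM (counts per 1000000 of the scaled library) in the knockout library and 90785 CPM in the WT library. Without albumin (Alb) the sums were 48310 CPM in the knockout library and 40243 CPM in the WT library, and 3 of the 10 (Apob, Tat and Pck1) were lower in the knockout library. Most markers of blood cells had lower counts in the knockout library. The 9 neutrophil markers summed to 26.8 CPM in the knockout library and 68.0 CPM in the WT library. Of the 9, 5 were lower by at least 2-fold (55.6%, against 8.61% of all genes compared). The 7 erythroid markers found summed to 784 CPM in the knockout library and 3087 CPM in the WT library. Of 6 compared, 5 passed 2-fold on the lower side (83.3%, against 8.61% of all genes). The exception was Alas2, with 306 CPM in the knockout library and 209 CPM in the WT library (log2 ratio 0.55). Kupffer cell and macrophage markers summed to 1264 CPM in the knockout library and 1779 CPM in the WT library. By at least 2-fold 0 of 10 were lower (against 8.61% of all genes) and 1, Vsig4 (log2 ratio 1.02), was higher (10%, against 8.45%). These 2 shares are near the background. Endothelial markers summed to 372 CPM in the knockout library and 418 CPM in the WT library, and those of stellate cells and fibroblasts to 143 CPM in the knockout library and 155 CPM in the WT library. Cholangiocyte markers summed to 26.4 CPM in the knockout library and 41.0 CPM in the WT library, and lymphocyte markers to 13.7 CPM in the knockout library and 14.8 CPM in the WT library. The cholangiocyte marker Cftr was listed at 0 in the WT library and had 12 counts in the knockout library. The part of these differences in the values below was not tested, and in whole tissue fewer cells of a type and less RNA per cell cannot be told apart.

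The p53 genes did not move as a block. Of the 10 genes, 6 were lower and 4 higher in the knockout library (Ccng1 changed side with a correction for GC content), with log2 ratios from -1.14 to 0.62 and a median of -0.30, beside a median of -0.01 over all genes compared. Only Cdkn1a passed 2-fold, on the lower side, where 8.61% of all genes lay. On the higher side, where 8.45% of all genes lay, there were 0 of the 10, and 17.1% of all genes passed 2-fold in either direction. A share of 1 in 10 is close to that background. The typical size of the log2 ratio, whichever its sign, was 0.50 for the p53 genes and 0.44 for all genes compared. Counting error alone was narrower than most of these differences. The interval lay wholly below 0 for 5 genes, wholly above 0 for 4 and held 0 for Sesn1 alone.

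**Figure D1:**
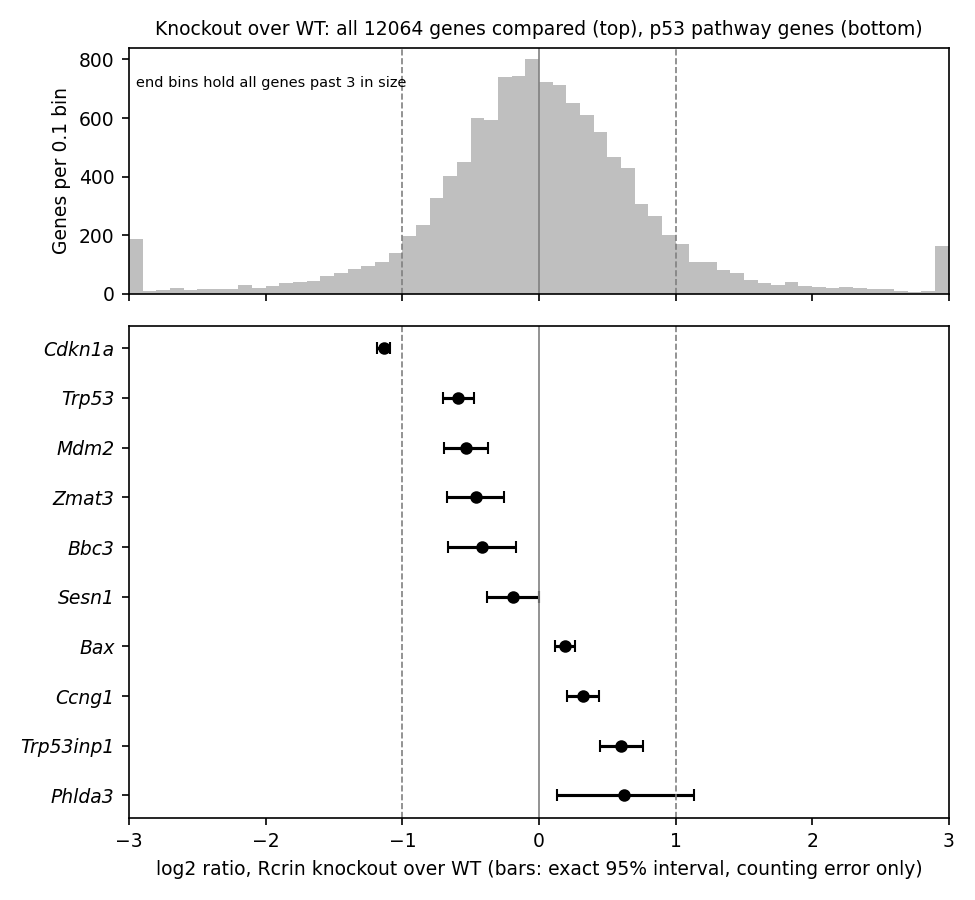
Top, number of genes in each 0.1 step of the log2 ratio (knockout over WT) over all 12064 genes compared, with genes past 3 in size placed in the end bins. Bottom, the log2 ratio of each p53 gene with its exact 95% interval for counting error, 1 library per genotype. Dashed lines mark 2-fold. Cdkn1a at -1.14 is the only one of the 10 outside them, and the rest lie within the bulk of all genes.

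Cdkn1a (ENSMUSG00000023067, GRCm38 chromosome 17 from 29090976 to 29100727, plus strand) encodes p21, which binds and inhibits cyclin-dependent kinases and is the main route by which p53 halts the cell cycle. It had 4723 counts in the knockout library and 11017 in the WT library, or 75.6 CPM in the knockout library against 166 CPM in the WT library. That is 2.20-fold lower, a log2 ratio of -1.14 (interval -1.19 to -1.09). Over all genes compared, 13.8% lay at least as far from 0. The gene carried much of the counts of the whole group. It made up 38.0% of the summed counts of the 10 genes in the knockout library and 57.2% in the WT library. The sum over all 10 was 199 CPM in the knockout library and 291 CPM in the WT library, whereas without Cdkn1a it was 123 CPM in the knockout library and 125 CPM in the WT library. Nearly all of the difference between these totals came from Cdkn1a. Among the other 9 genes, 5 were lower and 4 higher, so their near-equal sums do not mean that each was unchanged.

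The Cdkn1a call has limits that the data show. With the trend of log2 ratio on transcript GC content removed, its log2 ratio was -0.95, inside 2-fold. The number of p53 genes past 2-fold became 0, beside 899 higher and 1000 lower of 12059 genes. Its transcript with most exons has 3, and differences were more frequent among genes with few exons. Of 648 genes with 3 exons, 28.2% passed 2-fold in either direction, against 13.9% of genes with 8 to 12 exons. On the lower side alone the shares were 13.4% with 3 exons and 6.34% with 8 to 12. On the opposite strand the gene model AC167363.2 overlaps 273 exonic bases of Cdkn1a, and it was listed at 0 in both libraries.

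**Figure D2:**
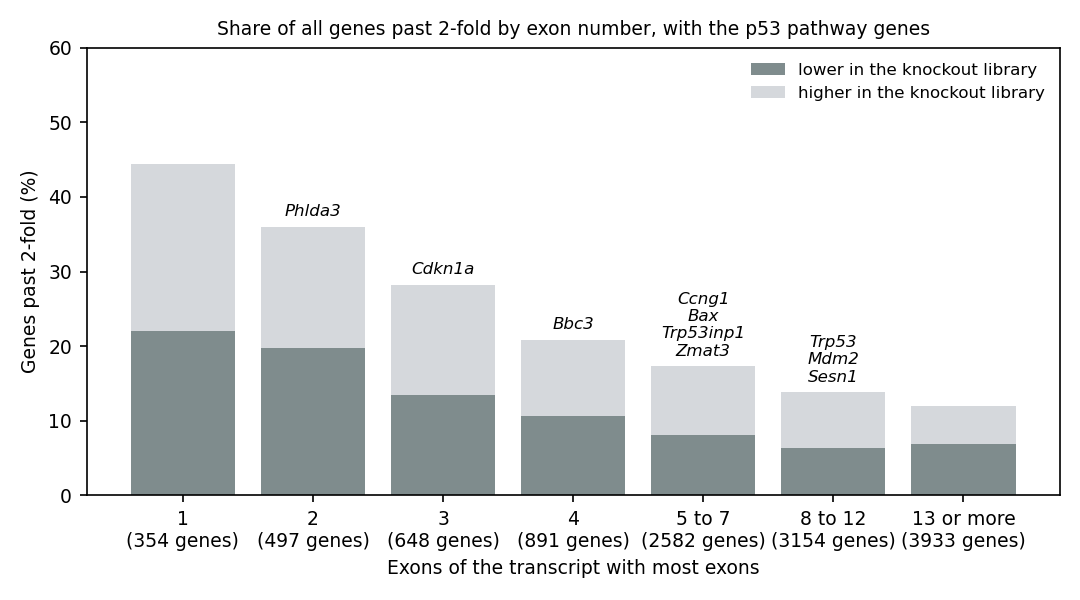
Share of all genes compared that passed 2-fold (vertical axis, percent), by the exon number of the transcript with most exons (horizontal axis), split into genes lower and higher in the knockout library. The names of the p53 genes stand above their class. The share is 28.2% at 3 exons, the class of Cdkn1a, and 13.9% at 8 to 12 exons, the class of Trp53, Mdm2 and Sesn1.

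The first of the 2 annotated starts of Cdkn1a lies beside a p53 element, which is shown because p53 reaches its targets through such sites. The p53 response element is a pair of 10-base units, each of 3 purines, a core of C, 2 bases that are A or T, and G, and 3 pyrimidines. The motif reads the same on both strands. RefSeq windows (GRCm38.p6) of 250 bases before to 50 after a transcript start were searched for the closest adjacent pair, and 8 of the 10 genes had a window, 12 windows in all. A pair with at most 1 mismatch stood in 2 of them, 1 of Cdkn1a and 1 of Ccng1, against 0.0884% of all 32817 windows. In the Cdkn1a window the pair lies at chr17:29090928-29090947, 51 to 32 bases before the first start. Counts per gene do not tell which of the 2 starts was used. In the Ccng1 window, on the minus strand, it lies at chr11:40755462-40755481, 195 to 176 bases before the start. The stretches upstream of the start, chr17:29090729-29090975 (plus strand) and chr11:40755312-40755536 (minus strand), read as follows, with the pair in capitals.
Cdkn1a: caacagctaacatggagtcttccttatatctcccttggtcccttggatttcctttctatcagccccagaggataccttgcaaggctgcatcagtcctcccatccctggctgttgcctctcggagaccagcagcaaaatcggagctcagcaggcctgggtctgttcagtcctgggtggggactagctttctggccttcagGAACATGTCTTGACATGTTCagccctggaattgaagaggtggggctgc
Ccng1: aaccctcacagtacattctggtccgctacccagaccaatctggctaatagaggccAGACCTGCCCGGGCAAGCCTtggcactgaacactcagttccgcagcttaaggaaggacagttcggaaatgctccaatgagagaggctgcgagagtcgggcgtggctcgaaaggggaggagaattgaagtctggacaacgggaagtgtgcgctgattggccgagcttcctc
These 2 genes with the closest pairs stood apart in the counts, Cdkn1a at a log2 ratio of -1.14 (-0.95 with the GC trend removed, a correction described above) and Ccng1 at 0.32 (-0.22 with it removed).

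The other windows held weaker pairs. Those with 3 mismatches are shown beside the 2 above to let the units be compared, with bases that match the motif in capitals and mismatches in lower case.
Cdkn1a: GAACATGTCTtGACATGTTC
Ccng1: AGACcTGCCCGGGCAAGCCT
Bbc3: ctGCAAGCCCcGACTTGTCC
Bax: AGcaTAtCCCAGGCAAGCTT
Trp53: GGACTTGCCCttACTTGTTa
Sesn1: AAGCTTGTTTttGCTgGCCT
A pair with at most 3 mismatches stood in 6.29% of all windows. The best pairs of Mdm2, Phlda3 and the second Cdkn1a window had 5 mismatches. Units with bases between them, and sites outside these windows, were not searched. A weak pair here therefore does not show that a gene lacks a p53 element. A match of letters is a description of the sequence, and none of these files measures binding. Outside the 10 genes, 19 genes of the count tables had a window with a pair of at most 1 mismatch, and 5 of them were expressed enough to compare. Rps27l, a ribosomal protein-like gene known as a p53 target, had 17181 counts in the knockout library and 11391 in the WT library (log2 ratio 0.68). Bco1, which cleaves beta-carotene, had 125 counts in the knockout library and 312 in the WT library (log2 ratio -1.23). It was the one of the 5 past 2-fold, beside 17.1% of all genes in either direction. The remaining log2 ratios were -0.75 for Calhm2, 0.01 for Bank1 and 0.15 for Mthfd1.

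Trp53 itself and its chief inhibitor stood lower, by a similar amount only without a correction for GC content. Trp53 (ENSMUSG00000059552, chromosome 11 from 69580359 to 69591873) had 1013 counts in the knockout library and 1618 in the WT library, 1.51-fold lower with a log2 ratio of -0.59 (interval -0.70 to -0.48). A processed pseudogene, Trp53-ps, matches Trp53 transcripts with 94.96% identity over 1170 bases, and it was listed at 0 in both libraries. Mdm2 (ENSMUSG00000020184, chromosome 10 from 117688875 to 117710758) encodes the ligase that marks p53 for destruction and is itself induced by p53. It had 537 counts in the knockout library and 825 in the WT library, 1.45-fold lower with a log2 ratio of -0.53 (interval -0.69 to -0.38). The intervals of Trp53 and Mdm2 overlap. Ratios of this size were common, since 37.5% of all genes lay at least as far from 0 as Trp53 and 41.7% at least as far as Mdm2. With the GC trend removed the log2 ratio was -0.42 for Trp53 and -0.74 for Mdm2, each outside its counting interval.

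Ccng1 and Trp53inp1, which act on p53 and its feedback, had counts on the other side, Ccng1 only without a correction for GC content. Ccng1 (ENSMUSG00000020326, chromosome 11 from 40748552 to 40755311) encodes cyclin G1, a p53 target that recruits a phosphatase to Mdm2. It had 1306 counts in the knockout library and 1110 in the WT library, 1.25-fold higher with a log2 ratio of 0.32 (interval 0.20 to 0.44). Its transcripts have a GC content of 37.4%, the lowest of the 10, and with the GC trend removed its log2 ratio was -0.22, on the lower side. No direction is therefore given for Ccng1. Trp53inp1 (ENSMUSG00000028211, chromosome 4 from 11156431 to 11174379) encodes a stress protein that takes part in p53 phosphorylation and in autophagy. It had 832 counts in the knockout library and 581 in the WT library, 1.52-fold higher with a log2 ratio of 0.60 (interval 0.45 to 0.76), which became 0.15 with the GC trend removed.

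The apoptosis genes Bax and Bbc3 differed in sign. Bax (ENSMUSG00000003873, chromosome 7 from 45461697 to 45466898) encodes the protein that opens pores in the outer mitochondrial membrane. It had 2964 counts in the knockout library and 2758 in the WT library, 1.14-fold higher with a log2 ratio of 0.19 (interval 0.11 to 0.26). The protein-coding gene Gm45808 shares 192 exonic bases with Bax on the same strand, and it had 16 counts in the knockout library and 12 in the WT library. Bbc3 (ENSMUSG00000002083, chromosome 7 from 16308393 to 16318205) encodes Puma, which frees Bax by binding its inhibitors. It had 236 counts in the knockout library and 334 in the WT library, 1.33-fold lower with a log2 ratio of -0.41 (interval -0.66 to -0.17). With the GC trend removed the log2 ratio was 0.44 for Bax and -0.17 for Bbc3, whose transcripts have the highest GC content of the 10, 68.0%.

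Sesn1, Phlda3 and Zmat3 complete the group. Sesn1 (ENSMUSG00000038332, chromosome 10 from 41809935 to 41908424) encodes sestrin 1, which restrains mTORC1 signalling. It had 419 counts in the knockout library and 506 in the WT library, a log2 ratio of -0.19 (interval -0.38 to 0.003), so counting error alone could span no difference. Zmat3 (ENSMUSG00000027663, chromosome 3 from 32334792 to 32366014) encodes an RNA-binding zinc finger protein that serves p53 in tumour suppression. It had 316 counts in the knockout library and 462 in the WT library, 1.38-fold lower with a log2 ratio of -0.46 (interval -0.67 to -0.25). Phlda3 (ENSMUSG00000041801, chromosome 1 from 135766119 to 135769136) encodes a small protein that competes with Akt for membrane lipids. It had 86 counts in the knockout library and 59 in the WT library, 1.54-fold higher with a log2 ratio of 0.62. At this depth its interval runs from 0.13 to 1.13, the widest of the group, and it reaches past 2-fold. Phlda3 has 2 exons, a class in which 36.02% of genes passed 2-fold.

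**Figure D3:**
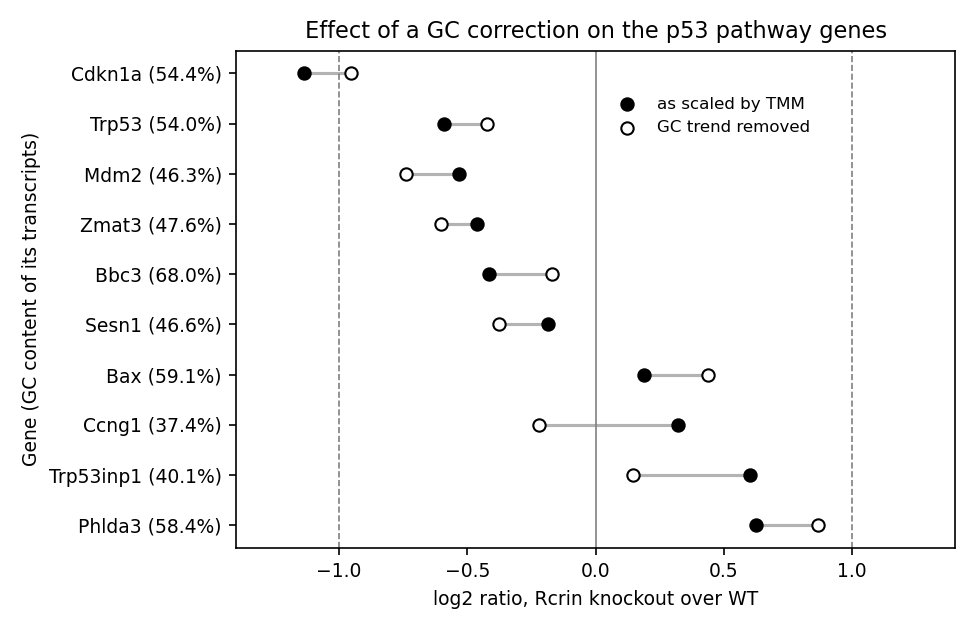
Log2 ratio (knockout over WT, horizontal axis) of each p53 gene as scaled (filled) and with the trend on transcript GC content removed (open), with the GC content beside each name. Dashed lines mark 2-fold. Cdkn1a moves from -1.14 to -0.95 and Ccng1 from 0.32 to -0.22, across 0.

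Between genes, levels were compared as CPM per kilobase of exon. Cdkn1a and Bax were the most abundant of the 10 in both libraries, in opposite order. Bax had 30.1 and Cdkn1a 21.3 CPM per kilobase in the knockout library, whereas Cdkn1a had 46.8 and Bax 26.4 in the WT library. The ratio of Cdkn1a over Bax was 0.707 in the knockout library and 1.77 in the WT library. Ccng1 and Trp53 came next in both, with Ccng1 at 5.95 and Trp53 at 4.01 CPM per kilobase in the knockout library, and Trp53 at 6.03 and Ccng1 at 4.77 in the WT library. By median transcript length Mdm2 took place 4 in both, ahead of Trp53 in the knockout library and of Ccng1 in the WT library. Between 1.35 and 2.45 CPM per kilobase lay Mdm2, Bbc3, Sesn1 and Trp53inp1 in either library. The order among them changed with the measure of length used in the knockout library, but not in the WT library. Zmat3 at 0.442 and Phlda3 at 0.883 CPM per kilobase were the lowest in the knockout library, as were Phlda3 at 0.571 and Zmat3 at 0.610 in the WT library. The highest gene exceeded the lowest 68.1-fold in the knockout library and 81.9-fold in the WT library. Against all genes compared, Cdkn1a stood at percentile 87.3 of CPM in the knockout library and 93.8 in the WT library, and Phlda3 at percentile 9.14 in the knockout library and 3.90 in the WT library.

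**Figure D4:**
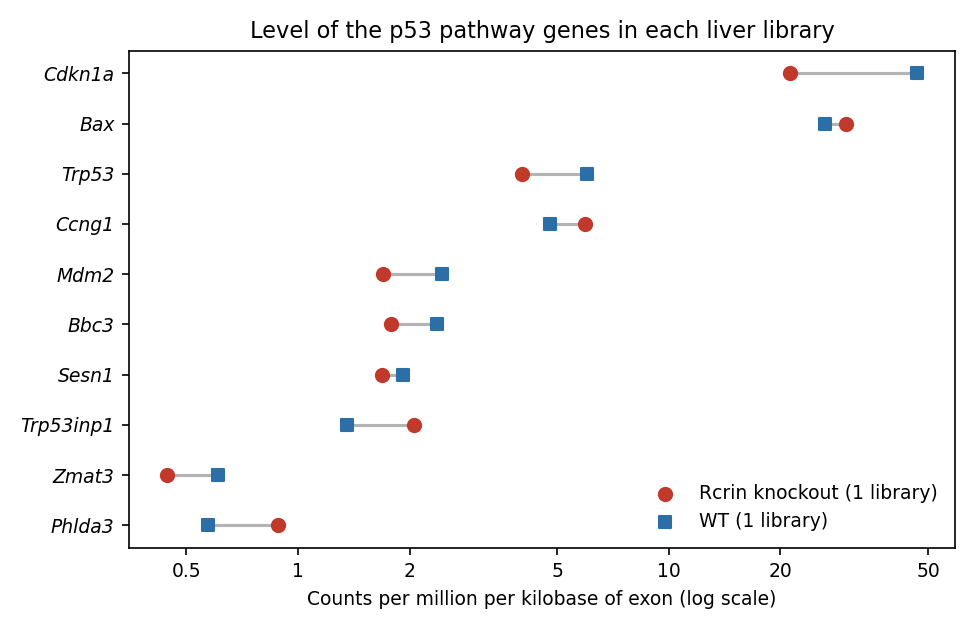
Level of each p53 gene in CPM per kilobase of exon (log axis) in the knockout library (red circles) and the WT library (blue squares), 1 library each. Cdkn1a shows the widest gap, 21.3 in the knockout library against 46.8 in the WT library, and lies below Bax in the knockout library.

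Other known p53 targets were collected in lists of cell cycle, apoptosis, and repair and metabolism genes. Of 48 genes, 36 were expressed enough to compare, with 3 higher and 0 lower by at least 2-fold and a median log2 ratio of 0.12. The higher share, 8.33%, is at the 8.45% of all genes, and the lower share was 0%, against 8.61% of all genes. In the cell cycle list 0 of 5 passed 2-fold, beside 17.1% of all genes in either direction. Plk2, a polo-like kinase, had 343 counts in the knockout library and 585 in the WT library (log2 ratio -0.68), while Btg2, an antiproliferative gene, had 2536 in the knockout library and 2312 in the WT library (0.22). Another 7 genes of this list had too few counts, among them Sfn and Rprm, both listed at 0 in both libraries. In the apoptosis list 1 of 11 passed 2-fold, on the higher side (9.09%, against 8.45% of all genes). Perp, which encodes a membrane protein of cell junctions, had 4024 counts in the knockout library and 416 in the WT library, 10.3-fold higher with a log2 ratio of 3.36 (interval 3.21 to 3.51), and it has 3 exons. The death receptor gene Fas had 1022 counts in the knockout library and 1291 in the WT library (log2 ratio -0.25). In the repair and metabolism list 2 of 20 passed 2-fold, both higher (10%, against 8.45% of all genes). Gdf15, a secreted stress hormone, had 4683 counts in the knockout library and 1556 in the WT library (log2 ratio 1.67, interval 1.59 to 1.76). Rrm2b, the p53-inducible subunit of ribonucleotide reductase, had 86 counts in the knockout library and 45 in the WT library (log2 ratio 1.01, interval 0.48 to 1.57), and 0.66 with the GC trend removed.

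Among genes that control p53, 15 of 18 compared (83.3%) had a log2 ratio above 0, against 49.2% of all genes, with a median of 0.38, and 0.25 with the GC trend removed. Of those above 0, the counting intervals of Rchy1, Hipk2, Atm, Chek2, Ep300 and Kat5 held 0. The list mixes genes that act for and against p53, so this share gives no direction for p53 control. By at least 2-fold 2 were higher (11.1%, against 8.45% of all genes) and 1 lower (5.56%, against 8.61%), shares near the background. Usp7, a deubiquitinase that acts on both Mdm2 and p53, had 1943 counts in the knockout library and 736 in the WT library (log2 ratio 1.49, interval 1.36 to 1.61). The DNA damage kinase gene Atr had 231 counts in the knockout library and 102 in the WT library (log2 ratio 1.26, interval 0.92 to 1.62), and 0.70 with the GC trend removed. Ppp1r13l, which encodes the p53 inhibitor iASPP, had 259 counts in the knockout library and 617 in the WT library (log2 ratio -1.17, interval -1.38 to -0.96), and -0.89 with the GC trend removed. Cdkn2a, whose product Arf blocks Mdm2, was listed at 0 in the knockout library and had 8 counts in the WT library.

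Of the pathway lists, the one with the largest share of genes past 2-fold was that of the partners of Bax and Bbc3 in apoptosis. Of 16 genes of the Bcl2 family, caspases and their regulators, 7 were lower by at least 2-fold, 43.8% against 8.61% of all genes. On the higher side there was 1, 6.25% against 8.45% of all genes. The list median was -0.79. Xiap, a caspase inhibitor, had 199 counts in the knockout library and 1683 in the WT library (log2 ratio -2.99, interval -3.21 to -2.78). Casp9, the initiator caspase of the mitochondrial route, had 168 counts in the knockout library and 1124 in the WT library (log2 ratio -2.65, interval -2.90 to -2.42). Among the antiapoptotic Bcl2 family genes of the list, Mcl1 had 817 counts in the knockout library and 4465 in the WT library (log2 ratio -2.36). Bcl2l2 had 208 in the knockout library and 1084 in the WT library (-2.29). The antiapoptotic Bcl2l1 and Bcl2 lay within 2-fold, at log2 ratios of -0.65 and 0.03. The list thus held lower genes that promote and lower genes that restrain apoptosis. Endog, a mitochondrial nuclease, was the higher one, with 1252 counts in the knockout library and 512 in the WT library (log2 ratio 1.37). Bak1, the closest relative of Bax in function, had 1819 counts in the knockout library and 2521 in the WT library (log2 ratio -0.39).

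The kinases and Rb-E2F genes downstream of p21 showed a median log2 ratio of 0.17 over 22 genes, 0.01 with the GC trend removed and -0.11 with a mean of 500 counts required, so the list has no firm direction. By at least 2-fold 3 were higher (13.6%, against 8.45% of all genes) and 1 lower (4.55%, against 8.61%). With 500 counts required both numbers were 0 of 8, beside 452 higher and 465 lower of 7217 genes. With 5 reads added 0 were lower, beside 1008 of 12064 genes. Ccnb1, the mitotic cyclin B1, had 76 counts in the knockout library and 31 in the WT library (log2 ratio 1.36, interval 0.76 to 2.03). Lin9, a subunit of the complex that controls cell cycle genes, had 90 counts in the knockout library and 40 in the WT library (log2 ratio 1.24, interval 0.70 to 1.83), and Cdk6 had 117 in the knockout library and 56 in the WT library (1.14, interval 0.68 to 1.63). Lin9 came inside 2-fold, at 0.84, with the GC trend removed. Ccne1, which encodes cyclin E1, a partner of the p21 target Cdk2, had 60 counts in the knockout library and 132 in the WT library (log2 ratio -1.05, interval -1.52 to -0.60), and -0.96 with the GC trend removed. Each of these 4 genes rests on at most 132 counts in a library. Cdk2 itself had 758 counts in the knockout library and 631 in the WT library (log2 ratio 0.35).

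Of 13 paralogs of the p53 genes, 2 passed 2-fold on the lower side (15.4%, against 8.61% of all genes). On the higher side there were 0, against 8.45% of all genes, and the median log2 ratio was -0.05. With the GC trend removed, 0 passed 2-fold on the lower side, beside 1000 of 12059 genes. The other inhibitors of the p21 family had log2 ratios of -0.12 for Cdkn1b and 0.11 for Cdkn1c, beside -1.14 for Cdkn1a. Mdm4, which binds p53 as Mdm2 does, had 1010 counts in the knockout library and 665 in the WT library, a log2 ratio of 0.69 (interval 0.55 to 0.83) beside -0.53 for Mdm2, and 0.34 with the GC trend removed. The log2 ratio of Ccng2 was -0.55 and that of Trp53inp2 -0.53, while the sestrin genes Sesn2 and Sesn3 stood at -0.02 and 0.39. Phlda1 had 4632 counts in the knockout library and 10254 in the WT library (log2 ratio -1.06, interval -1.11 to -1.01), and -0.84 with the GC trend removed. It has 2 exons, like Phlda2, for which the knockout library lists 0 and the WT library 78 counts. Bok, a relative of Bax, had 607 counts in the knockout library and 1307 in the WT library (log2 ratio -1.02, interval -1.16 to -0.88), and -0.75 with the GC trend removed. Bok is also among the lower genes of the Bcl2 family list above. The zinc finger relatives Zmat1, Zmat2 and Zmat5 had log2 ratios of 0.37, 0.36 and -0.05. The p53 relatives Trp63 and Trp73 were listed at 0 in both libraries.

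**Figure D5:**
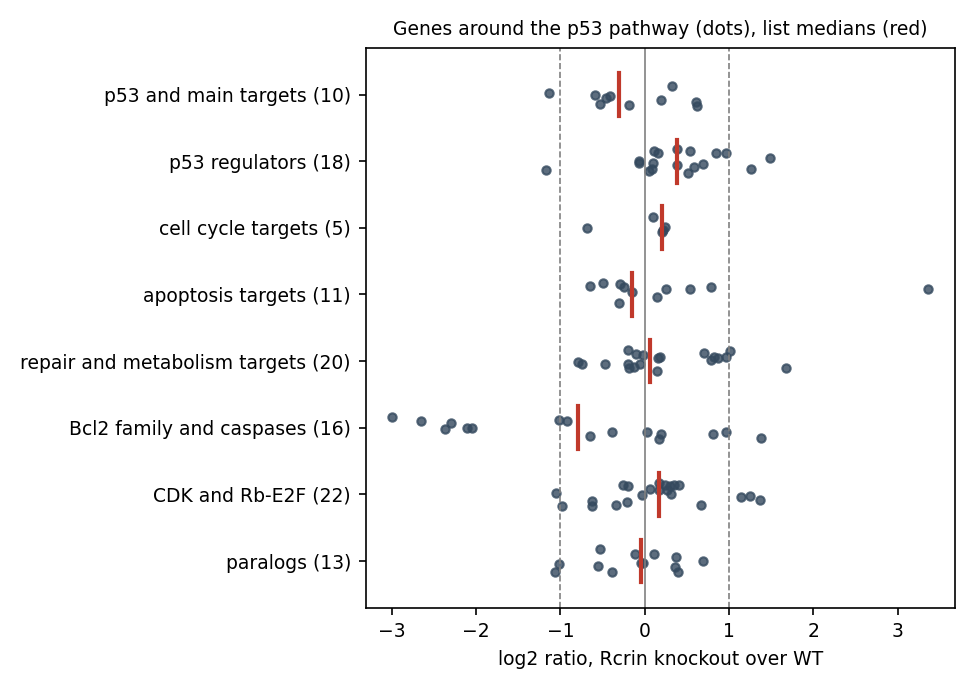
Log2 ratio (knockout over WT, horizontal axis) of every gene compared in the lists around the p53 pathway, 1 dot per gene, with the list median as a red bar and the number of genes in parentheses. Dashed lines mark 2-fold. The list of the Bcl2 family and caspases has its median at -0.79 and 6 genes below -2, and the p53 genes themselves have a median of -0.30.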

How the data were processed

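Liver RNA was taken up in Trizol and sequenced from SMARTER mRNA-Seq libraries, per the labels' protocols, with 1 knockout and 1 WT library, grouped by the genotype label. The authors deposited raw counts of reads per gene, as the file headers name them. The build was GRCm38 (mm10), per the submitters' processing notes. The aligner, counter, annotation release, use of strand and treatment of multi-mapping reads are not given in the sources used here.

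GENCODE M21 matched 55240 of the 55421 genes and supplied names, positions, exons, lengths and GC content. Libraries were scaled with TMM factors (edgeR 4.0.16 in R 4.3.3), 0.982 for the knockout and 1.02 for WT, and CPM are per 1000000 counts of the scaled library. A count of 0.5 was added before each log2 ratio. Genes were compared at a mean of at least 50 counts, and called at 2-fold. No test of edgeR or DESeq2 was run, since each genotype has 1 library. Intervals cover counting error only, and PCR reads lacking molecular identifiers are not independent molecules. Genes at 0 in a library get no fold. At the level filter used, the pathway lists held no such gene, while the values over all genes and those without a level filter include some. The GC trend was a lowess fit (statsmodels 0.14.6, span 0.3). Near-identical copies were sought with BLAST 2.17.0 (at least 90% identity over 300 bases).

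The 10 genes and the 7 lists around them were chosen with earlier results of these data known, and the mismatch limit for the p53 element after its matches were seen. All 10 genes are named, and of each list at most the 4 farthest past 2-fold in each direction, with every paralog compared. Other genes named, those within 2-fold and those with too few counts, were picked after their values were seen. Of the listed symbols, 1 had no match.

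In simulated libraries of the real size (12068 genes compared), 100% of 4-fold and 0% of 1.5-fold changes were called, and 95.3% of intervals held the simulated ratio, for counting error alone. Alternatives were DESeq2 1.42.0 size factors, total counts, 5 reads added, GC correction, other level filters, exon number, other fold limits, and the mean in place of the median.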

Additional observations from a re-analysis of the deposited data

How the results depend on the processing

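With 1 library per genotype no replicate could be left out. No paired analysis was possible because each genotype has 1 library and the labels carry no replicate numbers. Scaling by DESeq2 size factors or adding 5 reads moved none of the 10 log2 ratios beyond its counting interval, and total count scaling moved Cdkn1a alone, to -1.19. The medians of all genes shifted by less than 0.1 under each scaling. With the GC trend removed, log2 ratios became -0.42 for Trp53, -0.95 for Cdkn1a, -0.74 for Mdm2, -0.22 for Ccng1, 0.44 for Bax, -0.17 for Bbc3 and 0.15 for Trp53inp1. The number of p53 genes past 2-fold on the lower side became 0, beside 1000 of 12059 genes. At a limit of 1.5-fold, 2 of the 10 p53 genes were higher and 2 lower, beside 2289 higher and 2267 lower of all 12064 genes compared. At 4-fold 0 of the p53 genes were lower, beside 338 of the 12064. The median of the p53 genes compared stayed below 0 throughout. It was -0.17 over the 6 with a mean of at least 500 counts and -0.41 over the 9 with at least 3 exons. Without Trp53, or without Cdkn1a, it was -0.19. The mean of the 10 was -0.16.

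Over all genes, 1019 were higher and 1039 lower at 2-fold. Without a level filter these counts were 3366 and 3556 of 19111, and with a mean of at least 500 counts 452 and 465 of 7217. Of the 12064 genes compared they were 2289 and 2267 at 1.5-fold, and 303 and 338 at 4-fold. Over the pathway lists together, 9 of 101 genes were higher (8.91%, against 8.45% of all genes) and 10 lower (9.90%, against 8.61%), with a median of 0.11. With a mean of 500 counts required, the median became -0.050, with 4 of 59 higher. Of the 101, 21 were higher and 19 lower at 1.5-fold, and 1 was higher and 6 were lower at 4-fold. With the whole interval past 2-fold 4 of the 101 were higher, beside 715 of the 12064 genes. Medians of single lists that changed sign were those of apoptosis targets (-0.15, against 0.20 without a level filter and 0.00052 among genes with at least 3 exons), of repair and metabolism targets (0.06, against -0.039 without a filter and -0.063 at 500 counts) and of the kinase and Rb-E2F genes (0.17, against -0.11 at 500 counts), so these lists have no firm direction. The cause of these changes was not tested. By the median transcript length in place of exon length, Cdkn1a and Bax kept the first places and Mdm2 moved to place 4 in both libraries.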

Other observations

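Other caspase genes were looked at after the values of Casp9 were seen, and some are not reported here. Casp2, known for a p53-linked role through Pidd1, had 27 counts in the knockout library and 308 in the WT library (log2 ratio -3.40, interval -4.05 to -2.86). Casp8, the initiator of the death receptor route, lay within 2-fold, with 1713 counts in the knockout library and 1432 in the WT library (log2 ratio 0.34). Casp6 stood at a log2 ratio of 0.57, Casp1 at 0.36 and Casp4 at 0.65.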
